A study of Mus musculus with 3 samples.

Results

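The replication-dependent histone genes encode the H1 linker histones and the H2A, H2B, H3 and H4 core histones that package newly copied DNA. They were chosen by name alone, as every gene in the count table whose symbol begins with Hist1h, Hist2h, Hist3h or Hist4h. This gave 63 of 18029 genes, namely 6 of type H1, 16 of H2A, 16 of H2B, 12 of H3 and 13 of H4. The variant histones that cells make outside S phase, such as H3f3b and H2afz, carry other names and were not members.

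The cells were splenic donor T cells taken on day 7 after allogeneic bone marrow transplantation (BMT), in which B6D2F1 recipients had been given bone marrow and T cells from B6 mice together with a small number of TEa T cells. TEa is a T cell receptor transgene that recognises a recipient peptide. From day 0 to day 6 the recipients were given saline or cyclosporine (CSA), the latter at a daily dose of 5 or 50 mg/kg, with 6 mice in each group. CSA is a calcineurin inhibitor that blocks NFAT activation downstream of the T cell receptor. The labels give no age for the mice. The spleens of 2 mice were pooled, the 3 pools of a group were marked with hashtag antibodies, and each group's sorted CD8+ and CD4+ cells were mixed and run in 1 droplet capture for 5′ single-cell RNA-Seq. A capture and its treatment therefore cannot be told apart, and every p-value measures only the spread between pools that shared a capture. After the TEa cells were left out, 10091 CD4+ and 10833 CD8+ cells remained.

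Depth differed between the captures, with a median of 3554 unique molecular identifiers (UMIs, 1 per captured RNA molecule) per cell with saline, 5093 with CSA 5 mg/kg and 6602.5 with CSA 50 mg/kg. A pool held between 692 and 1615 cells of a lineage and between 3994968 and 11454636 UMIs. The 13 CD4+ and 9 CD8+ clusters are those of the study. The naive clusters were the highest in their lineage for Ccr7 and Lef1, and the cycling clusters for Mki67, Pclaf and Rrm2. Cd4 was 0 in every CD8+ cluster and Cd8a was 0 in every CD4+ cluster. Cd8b1, another lineage gene, was not 0 in CD4+ cells. Per 1000000 UMIs it had 205.4 in CD4+ C4, its highest CD4+ cluster, and 125.7 in naive CD4+ cells. In naive CD8+ cells it had 1786. Whether the zeros came from the way cells were assigned to a lineage was not tested, so they do not show a clean separation. Of all cells, TEa included, 1080 carried a second strong hashtag, no cell was marked as a doublet, and 218 barcodes occurred in more than 1 capture.

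In most cells these genes are switched on together as DNA replication starts, driven by NPAT at nuclear histone locus bodies, and their mRNA is destroyed when S phase ends. Their mRNAs are the main class of animal mRNA that ends in a conserved stem-loop, bound by the stem-loop binding protein (gene Slbp), in place of a poly(A) tail. A poly(A)-primed library such as this one therefore records only the part of this mRNA that it can prime from, and a level here is not the full histone mRNA of a cell. In T cells after transplantation, dividing effector cells are where this mRNA is expected to be made, so a histone count is commonly read as a mark of S phase.

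The stem-loop is printed because it separates this gene class from other mRNAs and bears on what the library can capture. In the GENCODE annotation of GRCm38, 45 of the 63 members had a transcript with the 16-base element near its end, in 8 forms. Capitals mark the loop between the paired bases.
most frequent form, 25 members: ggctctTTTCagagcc
next most frequent form, 7 members: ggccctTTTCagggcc
next form, 6 members: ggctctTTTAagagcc
form found in Hist1h4i and 1 other member: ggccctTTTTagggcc
Among these 45 members, 23 had an annotated transcript that ran over 100 bases past the stem-loop, and 14 of the 63 members had the polyadenylation signal AATAAA in the last 50 bases of a transcript. A stem-loop not found says only that these letters are not in the annotated transcripts.

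Most members lie in a few gene clusters, with 51 on chromosome 13 and 9 on chromosome 3. In all, 59 members had a single exon. Near-identical copies are a limit of the counts, since 26 members shared most of their 50-base stretches with another member and 7 shared none. How the counting treated reads that fit several copies is not given in the sources used here, so the split between copies is uncertain. Hist1h2ap (chr13:21833026-21833507, minus strand, GRCm38) shared 93.072% of its 50-base stretches, while Hist1h1b (chr13:21779883-21780625, minus strand) and Hist3h2ba (chr11:58948920-58949533, plus strand) shared 0%.

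The promoters of 57 members could be matched in RefSeq (GRCm38.p6), each from 250 bases before the start to 50 after it. CCAAT, searched on both strands like the other motifs, was in 84.2% of them against 37.4% of all 32851 promoters. It was in all 45 of the matched H1, H2A, H2B and H3 promoters and in 3 of 12 H4 promoters. TATAAA was in 57.9% against 13.6% of all promoters. The octamer, the letters bound by OCT1, was in 19.3% against 1.74%, namely in 6 H2A and 5 H2B promoters. The H1 box AAACACA was in 5 of 6 H1 promoters, against 7.18% of all promoters. Because 14 of the 57 windows overlap that of another member, often a neighbour read in the opposite direction, these promoters are not independent.

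The promoters of 4 members whose counts moved in different ways are shown, as the 250 bases before the start, with every motif found in capitals on either strand.
Hist1h1b, chr13:21780626-21780875, minus strand: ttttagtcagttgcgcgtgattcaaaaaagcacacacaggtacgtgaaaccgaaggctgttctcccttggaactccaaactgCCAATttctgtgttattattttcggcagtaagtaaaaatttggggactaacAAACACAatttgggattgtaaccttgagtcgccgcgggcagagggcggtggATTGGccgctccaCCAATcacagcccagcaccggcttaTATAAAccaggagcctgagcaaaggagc
Hist1h2ae, chr13:23571221-23571470, minus strand: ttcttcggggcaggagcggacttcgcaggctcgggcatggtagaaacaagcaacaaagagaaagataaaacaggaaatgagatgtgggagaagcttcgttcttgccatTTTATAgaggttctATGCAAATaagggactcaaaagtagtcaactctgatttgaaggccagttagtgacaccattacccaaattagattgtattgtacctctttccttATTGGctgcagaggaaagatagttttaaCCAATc
Hist1h4d, chr13:23581318-23581567, plus strand: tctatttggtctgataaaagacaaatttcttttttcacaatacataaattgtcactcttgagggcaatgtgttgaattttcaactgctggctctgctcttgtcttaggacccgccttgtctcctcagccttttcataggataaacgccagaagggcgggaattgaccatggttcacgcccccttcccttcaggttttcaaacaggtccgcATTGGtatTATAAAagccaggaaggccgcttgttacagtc
Hist1h4i, chr13:22041363-22041612, minus strand: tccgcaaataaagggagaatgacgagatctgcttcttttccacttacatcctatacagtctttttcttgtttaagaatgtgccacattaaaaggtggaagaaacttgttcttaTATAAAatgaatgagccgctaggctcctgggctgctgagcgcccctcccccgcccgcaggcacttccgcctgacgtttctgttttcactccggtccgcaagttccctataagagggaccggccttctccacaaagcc

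The members together held 539418 UMIs, and a few genes held most of them. The 10 most counted members had 79.25% of these UMIs. The linker histone Hist1h1b came first with 22.5%, followed by Hist1h1e with 15.78%. By type, H1 held 48.93% of the UMIs, H2A 20.07%, H4 11.41%, H3 9.828% and H2B 9.755%. These shares are counts of UMIs and do not rank how much mRNA each gene makes, because the genes differ in how well the library can prime them. At the other end, 13 members had under 100 UMIs, and Hist1h1t and Hist2h3c2 had under 10. Beside Hist3h2ba, the members outside the Hist1 and Hist2 clusters were Hist3h2a and Hist4h4.

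The summed level fell with each dose in both lineages. In CD4+ cells the 3 saline pools had 7843, 7606 and 7536 histone UMIs per 1000000 UMIs (CPM), the CSA 5 mg/kg pools 4229, 4061 and 3719, and the CSA 50 mg/kg pools 1734, 1579 and 1588. In CD8+ cells the saline pools had 9443, 8791 and 8806 CPM, the CSA 5 mg/kg pools 4338, 4230.1 and 4292, and the CSA 50 mg/kg pools 1496, 1486 and 1535. The 3 groups did not overlap in either lineage. The mean with CSA 50 mg/kg was 4.69-fold lower than with saline in CD4+ cells and 5.99-fold lower in CD8+ cells, and with CSA 5 mg/kg 1.91-fold and 2.10-fold lower. In sums over a pool, fewer cells that carry an RNA and less of it per cell cannot be told apart, so the level was followed per cell and per cluster.

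The histone types did not fall alike. In CD4+ cells H3 went from 912.9 ± 32.4 CPM with saline to 96.2 ± 6.64 with CSA 50 mg/kg (SD, n = 3 pools), 9.49-fold lower. H2A went from 1328 ± 19.1 to 422 ± 25.1 CPM, 3.15-fold lower. H1 was 4.52-fold lower, H2B 6.17-fold and H4 5.56-fold. In CD8+ cells the order from the smallest was H2A (3.94-fold), H4 (5.75-fold), H1 (6.29-fold), H2B (7.11-fold) and H3 (11.2-fold). In these sums H2A fell least and H3 most in both lineages. As a result H2A went from 17.3% ± 0.227 of the histone UMIs to 25.8% ± 0.686 in CD4+ cells and from 16.6% ± 0.120 to 25.2% ± 0.223 in CD8+ cells. H3 went from 11.9% ± 0.190 to 5.89% ± 0.352 and from 10.6% ± 0.198 to 5.68% ± 0.271. With CSA 5 mg/kg H4 took a larger share than with saline, 15.5% ± 0.643 against 11.6% ± 0.147 in CD4+ cells and 13.7% ± 0.247 against 9.69% ± 0.0555 in CD8+ cells. A sum follows its most counted genes, and the median log2 change of the members tested gave another order at CSA 50 mg/kg. In CD4+ cells H1 then fell least (−1.75) and H2B most (−2.25), with H2A at −1.88 and H3 at −2.07. In CD8+ cells H2A fell least (−1.89) and H2B most (−2.50), with H3 at −2.07.

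**Figure D1:**
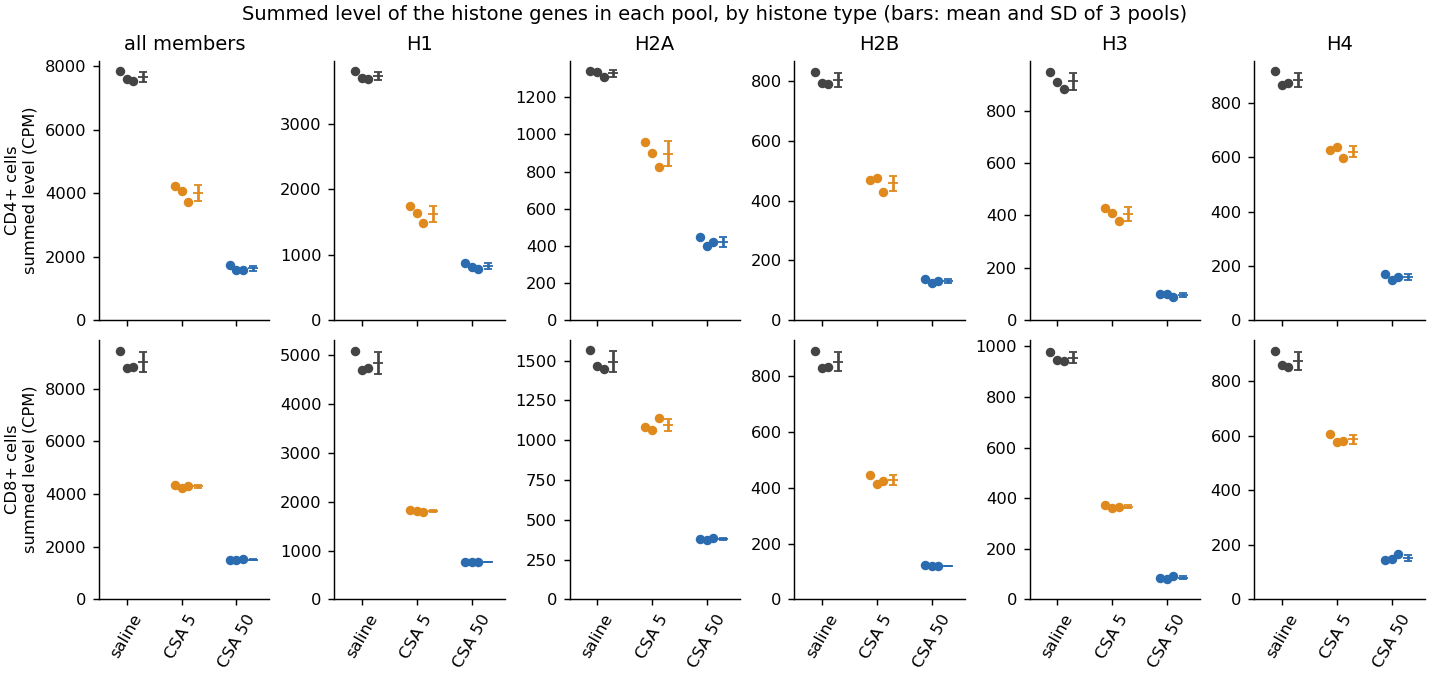
Summed level of the histone genes in CPM (y axis, from 0) in each pool by treatment, for all 63 members and for each histone type, with CD4+ cells above and CD8+ cells below. Points are pools and bars show the mean and SD of 3 pools. Every type fell between saline and CSA 50 mg/kg, with H3 lowest against its saline level and H2A highest.

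Naive cells, which do not divide, carried nearly as many histone UMIs as most other non-cycling cells in the saline and CSA 5 mg/kg captures. In the saline capture a naive CD4+ cell (cluster C9) held 19.5 histone UMIs on average, and the 8 CD4+ clusters outside the naive and cycling ones with at least 30 cells held between 18.1 and 20.4. With CSA 5 mg/kg the naive CD4+ cells held 13.4 and the other clusters between 13.03 and 15.9. With CSA 50 mg/kg the naive CD4+ cells held 1.89 and the other clusters between 1.84 and 4.61. The naive CD8+ cells (cluster C7) went the same way, with 18.01, 13.2 and 2.23 histone UMIs per cell at saline, 5 and 50 mg/kg. The naive clusters had between 94 and 161 cells in each capture.

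By pool, the naive CD4+ cells held 20.4, 18.5 and 20.04 histone UMIs per cell with saline, 13.8, 13.1 and 13.2 with CSA 5 mg/kg, and 2.05, 2.20 and 1.29 with CSA 50 mg/kg. The spread between pools of a capture was thus far smaller than the distance between captures. Levels at or near that of naive cells of the same capture were read here as background and not as expression. Whether it came from RNA free in the droplets was not tested.

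**Figure D2:**
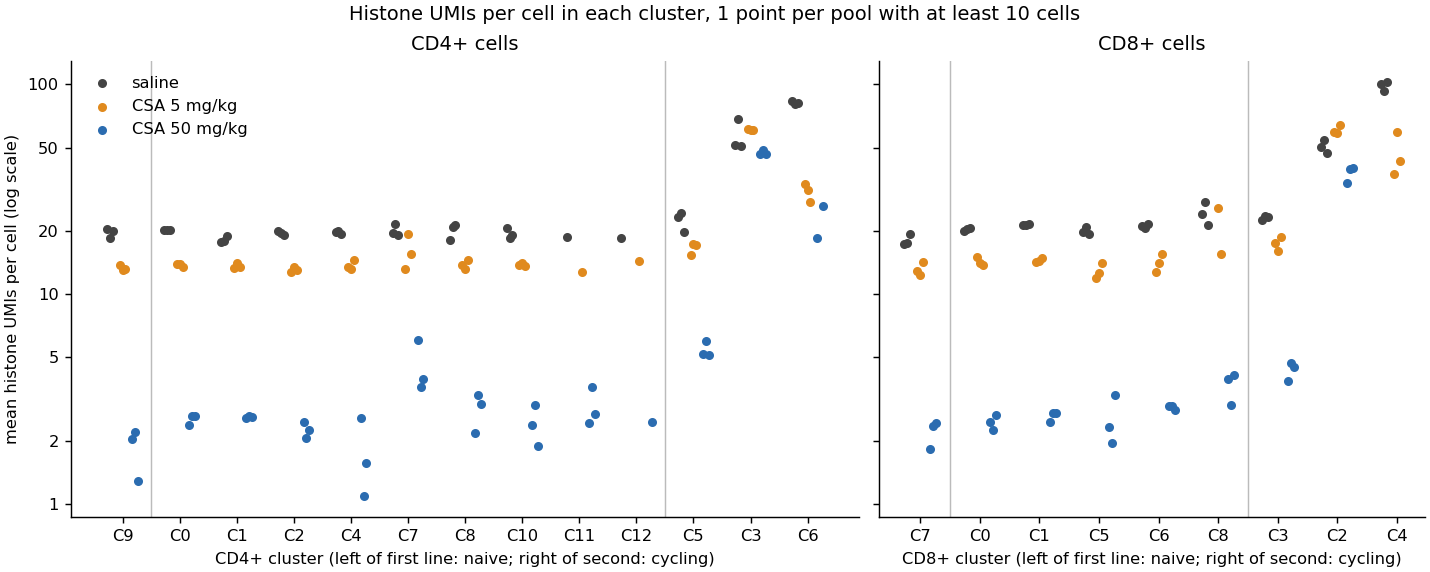
Mean histone UMIs per cell (y axis, log scale) in each CD4+ and CD8+ cluster, with 1 point per pool that had at least 10 cells of the cluster. The naive cluster stands left of the first line and the cycling clusters right of the second. Outside the cycling clusters, the means over all cells of a CD4+ cluster with at least 30 cells lay between 18.1 and 20.4 with saline. They lay between 13.03 and 15.9 with CSA 5 mg/kg and between 1.84 and 4.61 with CSA 50 mg/kg. Single pools of saline and CSA 5 mg/kg overlapped, with CD4+ C7 up to 19.4 at 5 mg/kg and CD4+ C1 down to 17.7 with saline.

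The histone UMIs of non-cycling cells rose less with the depth of a cell than H3f3b did. Outside the cycling clusters of the saline CD4+ cells, the shallowest of 3 equal depth classes held 17.6 histone UMIs at a mean of 2070 UMIs in all, and the deepest class held 21.6 at 4481. H3f3b, a replacement histone with a poly(A) tail, went from 2.16 to 4.71 UMIs per cell between the same classes. In the CD4+ cells of the CSA 50 mg/kg capture these classes held 1.89 and 3.503 histone UMIs, and 4.49 and 10.1 H3f3b UMIs. There the histone level rose more steeply with depth than in the saline capture, but still less than H3f3b. Markers of S phase and mitosis were lower in naive cells, relative to cycling cells, in the saline and CSA 5 mg/kg captures. In the saline CD4+ cells, naive cells held 33.5% of the histone UMIs of a C3 cell (cycling effector cluster 1), and 8.65% of its Pclaf, 5.51% of its Rrm2, 3.64% of its Mki67 and 11% of its Pcna UMIs. With CSA 50 mg/kg the naive cells held 4.01% of the histone UMIs of a C3 cell, 0.306% of its Pclaf and 8.42% of its Pcna, so Pcna lay above the members at that dose.

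The mix of histone genes in naive cells was nearer to that of some clusters than of others. Between naive CD4+ and naive CD8+ cells of the saline capture, 6.11% of the histone UMIs would have to change gene to match the other profile, between naive CD4+ and C5 cells 5.95%, and between naive CD4+ and C3 cells 15.2%. Between naive CD8+ and cycling CD8+ C3 cells it was 6.12%, and between naive CD8+ and C2 cells 15.4%. The cycling CD4+ cluster C3 and the cycling CD8+ cluster C2 differed by 3.23%. H1 was 44.0% of the histone UMIs in naive CD4+ cells of the saline capture, 50.7% in C3 and 58.3% in C6 (cycling effector cluster 3). H3 was 13.3%, 9.13% and 10.2%. H2A was 17.7%, 22.2% and 15.5%. Clusters were made from these same counts, so these are descriptions with no test.

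Thinning every cell to 2000 UMIs gave the same picture. Among naive cells of both lineages, 94.0% ± 2.41 (SD, n = 3 pools) with saline had at least 5 histone UMIs, against 64.8% ± 4.29 with CSA 5 mg/kg and 1.19% ± 1.29 with CSA 50 mg/kg. Among cells of the cycling clusters the shares were 94.1% ± 1.17, 69.3% ± 0.386 and 30.6% ± 1.93. In the saline and CSA 5 mg/kg captures the share in cycling cells was thus near that in naive cells, and is not read as expression there. The thinned means differed more, with 11.7, 6.62 and 0.902 UMIs per naive cell against 20.8, 11.3 and 4.82 per cycling cell. Shallower cells were left out, 61 of 225 naive cells in the saline capture, 12 of 261 with CSA 5 mg/kg and 11 of 255 with CSA 50 mg/kg. Without thinning, the share of naive cells with at least 5 was 100%, 98.0% and 9.53%.

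Taken over all cells, the naive level multiplied by the number of cells came to between 67.5% and 70.5% of the histone UMIs of a saline CD4+ pool and to between 65.3% and 68.0% with CSA 5 mg/kg. With CSA 50 mg/kg it came to between 16.5% and 17.9%. In CD8+ pools it came to between 41.2% and 42.5%, between 40.7% and 47.9%, and between 16.4% and 19.9%. The share was lowest at the highest dose in both lineages, and the saline and CSA 5 mg/kg pools of CD8+ cells overlapped.

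With the naive level of the capture subtracted, the dose pattern of the CD4+ cells changed. A CD4+ cell carried 8.13, 9.39 and 8.95 histone UMIs above the naive level in the saline pools, 6.43, 7.13 and 6.31 in the CSA 5 mg/kg pools, and 9.60, 8.66 and 9.41 in the CSA 50 mg/kg pools. The CSA 50 mg/kg pools thus overlapped the saline pools, at 9.22 ± 0.496 against 8.82 ± 0.638 (SD, n = 3 pools). In CD8+ cells the values were 25.7, 25.4 and 24.4 with saline, 14.3, 16.3 and 19.2 with CSA 5 mg/kg, and 8.96, 9.23 and 11.4 with CSA 50 mg/kg. The 3 CD8+ groups did not overlap, and CSA 50 mg/kg was 2.56-fold below saline. These are UMIs per cell and rise with depth, which was higher at each dose; no p-value is given for a sum over members.

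**Figure D3:**
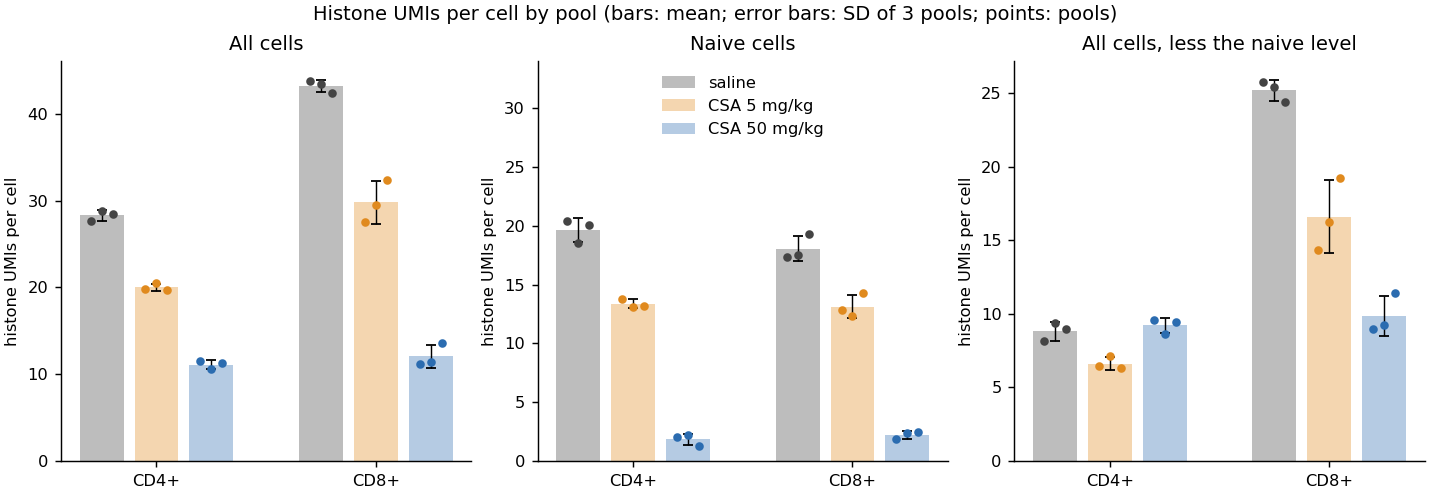
Histone UMIs per cell (y axis, from 0) by lineage and treatment, as counted and with the mean of the naive cells of the same capture subtracted; bars are means, error bars the SD of 3 pools and points the pools. As counted, both lineages fell with dose; above the naive level CD4+ cells kept 8.82, 6.62 and 9.22 UMIs per cell while CD8+ cells went from 25.2 to 16.6 and 9.86.

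The cycling clusters C3 and C6 of CD4+ and C2 and C4 of CD8+ cells stood farthest above the naive level in histone UMIs per cell. Of these, CD4+ C3 and CD8+ C2 express less of the activation receptor Cd226, while CD4+ C6 and CD8+ C4 express more of it. In CD4+ C3 the excess per cell was 38.6 with saline, 47.5 with CSA 5 mg/kg and 45.3 with CSA 50 mg/kg. In CD4+ C6 it was 62.1, 17.6 and 18.9, the last from 34 cells. In CD8+ C2 the excess was 32.5, 47.8 and 35.7, and in CD8+ C4 it was 80.7, 33.6 and 80.4, the last from 20 cells, with no pool of at least 10. Depth differed between these clusters and naive cells. At saline, 5 and 50 mg/kg the median CD4+ C3 cell had 6594.5, 9634 and 10570 UMIs in all. Naive CD4+ cells had 1981, 3216 and 3144.5. As a share of all UMIs, C3 had 7956, 6142 and 4377 CPM and naive CD4+ cells 8557, 4011 and 495. With saline CD4+ C6 (13508 CPM), CD8+ C2 (8232) and CD8+ C4 (14365) lay above the naive cells of their lineage. The remaining cycling cluster of each lineage, CD4+ C5 and CD8+ C3, in which the centromere gene Cenpa was highest, had a smaller excess, of 2.79, 3.36 and 3.54 in CD4+ C5 and 5.14, 4.34 and 2.14 in CD8+ C3. CD4+ C5 cells held 5.43 histone UMIs each with CSA 50 mg/kg, against 1.89 in naive cells. Some non-cycling clusters also lay above naive cells. The exhausted CD8+ cluster C8 had an excess of 6.48 with saline and 5.95 with CSA 5 mg/kg, more than CD8+ C3, and CD4+ C7 had 2.72 with CSA 50 mg/kg. Both had more UMIs in all per cell than the naive cells.

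Single cells of these clusters were very uneven. In CD4+ C3 of the saline capture the median cell held 37 histone UMIs, the 90th percentile 133.3 and the highest cell 253, and the variance was 43.8 times the mean. In naive CD4+ cells the median was 18.5, the 90th percentile 28.1 and the variance 2.66 times the mean. In CD8+ C4 of the same capture the median was 87 and the highest cell 530.

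The share of cells in the histone-rich clusters moved with dose. CD4+ C3 was 4.35% ± 0.943 of the cells with saline, 10.7% with CSA 5 mg/kg and 17.7% with CSA 50 mg/kg, while C6 was 10.9% ± 0.646, 6.23% and 1.11%. CD8+ C4, the cluster with the most histone UMIs per cell in the saline capture, was 21.9%, 3.06% and 0.567% of the cells, and CD8+ C2 was 17.1%, 30.5% and 24.7%. With the cluster mix held at that of the saline pools, over the clusters present in both groups, the level with CSA 5 mg/kg was 0.697 of saline in CD4+ and 0.641 in CD8+ cells. With CSA 50 mg/kg it was 0.145 over 10 clusters that held 81.0% of the saline UMIs in CD4+ cells, and 0.208 over 8 clusters that held 68.5% in CD8+ cells.

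Gene by gene, the quasi-likelihood test of edgeR, adjusted over all genes by Benjamini-Hochberg, was run on counts summed per pool. A filter on low counts left 48 members in CD4+ and 50 in CD8+ cells, so the counts below are not of all 63, and a member that passed the filter only through the saline pools had to be lower elsewhere. With CSA 50 mg/kg against saline, 43 of the 48 fell and 3 rose in CD4+ cells. Of all genes tested there, 35.8% fell and 34.7% rose. The median log2 change of these members was −2.04, against −0.01 over all genes tested. In CD8+ cells 44 of 50 fell and 3 rose, with a median of −2.16, while 36.9% of all genes fell and 37.1% rose. With CSA 5 mg/kg 34 fell and 2 rose in CD4+ cells (25.6% and 26.1% of all genes; median −0.76), and 37 fell and 5 rose in CD8+ cells (30.3% and 29.9%; median −0.75). Between the doses, 35 were lower and 3 higher with CSA 50 than with 5 mg/kg in CD4+ cells (21.3% and 19.9%), and 40 were lower and 1 higher in CD8+ cells (21% and 20%). These comparisons share pools.

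The scale of these changes matters for reading them beside the CPM. The fits used TMM scaling, which centres the genes as a whole on 0. When only library size was used, the median log2 change of all genes was −0.45 in CD4+ and −0.53 in CD8+ cells with CSA 50 mg/kg and −0.37 and −0.43 with CSA 5 mg/kg. The share of all genes that fell with CSA 50 mg/kg then became 59.0% in CD4+ and 62.7% in CD8+ cells, and the share that rose 15.1% and 15.6%; with CSA 5 mg/kg 54.1% and 57.8% fell and 8.76% and 10.9% rose. The members changed less, with 43 lower and 3 higher in CD4+ and 45 lower and 2 higher in CD8+ cells at CSA 50 mg/kg, and 41 lower and 2 higher and 42 lower and 3 higher at CSA 5 mg/kg. Log2 changes below are on the TMM scale and CPM are shares of all UMIs.

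The H1 linker histones, which bind where DNA enters the nucleosome, fell as a block. All 5 H1 members tested were lower at each dose in each lineage (25.6% to 36.9% of all genes). The sixth, Hist1h1t, is the testis linker histone and had too few UMIs. Hist1h1b in CD4+ cells had 1713, 1651 and 1630.4 CPM with saline, 854, 752 and 683 with CSA 5 mg/kg, and 379.6, 354 and 344 with CSA 50 mg/kg. No pools overlapped, and the log2 changes were −0.77 ± 0.05 (SE; adjusted p = 9.34e-11) and −1.77 ± 0.05 (adjusted p = 7.58e-17). In CD8+ cells Hist1h1b had 2423, 2194 and 2251 CPM with saline, 849, 857 and 826 with CSA 5 mg/kg, and 341, 335 and 330.2 with CSA 50 mg/kg, a log2 change of −2.24 ± 0.04 at the higher dose (adjusted p = 2.08e-17). Hist1h1e, Hist1h1d and Hist1h1c had log2 changes between −1.75 and −1.43 in CD4+ cells and between −2.08 and −1.65 in CD8+ cells at CSA 50 mg/kg.

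Not all H2A members fell. Hist1h2ae, a core histone gene whose promoter above carries CCAAT boxes and the octamer, rose at the lower dose and fell at the higher one. In CD8+ cells it had 409, 395 and 376 CPM with saline, 501, 492 and 546 with CSA 5 mg/kg, and 165, 161 and 169.9 with CSA 50 mg/kg. The log2 changes were 0.81 ± 0.05 (adjusted p = 5.60e-11) and −0.72 ± 0.05 (adjusted p = 1.93e-10). In CD4+ cells it had 325, 336 and 319, then 397, 350.4 and 330.2, then 189, 174 and 179 CPM, so that saline and CSA 5 mg/kg overlapped, with log2 changes of 0.49 ± 0.05 and −0.42 ± 0.05. Outside the cycling clusters Hist1h2ae did not rise with CSA 5 mg/kg, at −0.17 in CD4+ and −0.18 in CD8+ cells.

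Hist1h2ap, another H2A gene, rose at both doses. In CD4+ cells it had 32.5, 33.3 and 31.0 CPM with saline, 51.2, 49.6 and 54.1 with CSA 5 mg/kg, and 79.7, 73.0 and 81.9 with CSA 50 mg/kg. In CD8+ cells it had 40.7, 41.0 and 38.8, then 78.8, 84.9 and 88.8, then 73.3, 68.9 and 73.1 CPM. The groups given CSA lay above saline in every pool, with log2 changes at CSA 50 mg/kg of 1.72 ± 0.07 (adjusted p = 1.81e-14) and 1.37 ± 0.06 (adjusted p = 6.51e-13). Its direction turned outside the cycling clusters, where the log2 change at CSA 50 mg/kg was −1.65 in CD4+ and −2.26 in CD8+ cells. Most of the sequence of Hist1h2ap is shared with other H2A genes, so its counts are uncertain. The other H2A members named, Hist1h2ab and Hist2h2ac, fell, with log2 changes between −2.67 and −2.10 at CSA 50 mg/kg.

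Among the H2B genes 11 of 14 tested fell in each lineage with CSA 50 mg/kg (35.8% of all genes in CD4+ and 36.9% in CD8+ cells). The steepest of the named ones was Hist1h2bm, with 209, 198 and 198 CPM in the saline, 125, 119.8 and 109 in the CSA 5 mg/kg and 17.0, 14.4 and 16.3 in the CSA 50 mg/kg pools of CD4+ cells. Its log2 change at the higher dose was −3.22 ± 0.07 in CD4+ (adjusted p = 1.13e-18) and −3.34 ± 0.08 in CD8+ cells (adjusted p = 4.67e-16). Hist1h2bj did not pass the test at the lower dose, with log2 changes of 0.03 ± 0.06 in CD4+ and −0.06 ± 0.06 in CD8+ cells, but was at −2.005 ± 0.07 and −2.05 ± 0.07 at the higher. Hist3h2ba, the H2B gene of the small cluster on chromosome 11, was picked out after its values were seen. It had 14.02, 13.9 and 16.5 CPM with saline and 23.4, 23.5 and 23.4 with CSA 50 mg/kg in CD4+ cells (log2 change 1.10 ± 0.11), and the pools did not overlap. In CD8+ cells it had 17.0, 14.7 and 15.2, then 16.04, 18.001 and 15.7 CPM, which overlap, with a log2 change of 0.62 ± 0.10 on the TMM scale.

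In sums over a pool, all 8 H3 members tested fell at each dose in each lineage (25.6% to 36.9% of all genes). Within CD4+ C3, 3 of 6 tested fell at each dose. Within CD8+ C2, 3 of 7 fell at 5 mg/kg and 5 of 7 at 50 mg/kg. Hist1h3e, the most counted H3 gene, had 530.2, 503 and 479.9 CPM with saline, 240.2, 227 and 204 with CSA 5 mg/kg, and 46.7, 46.1 and 44.5 with CSA 50 mg/kg in CD4+ cells. In CD8+ cells it had 555, 538 and 531, then 198, 199 and 201, then 41.2, 38.0 and 45.7 CPM. The log2 changes were −3.02 ± 0.06 in CD4+ (adjusted p = 1.04e-19) and −3.16 ± 0.06 in CD8+ cells (adjusted p = 2.08e-17) at the higher dose. The groups lay far apart in every pool. Hist1h3c, Hist1h3f and Hist1h3i had log2 changes between −3.12 and −2.22 at that dose.

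Of the H4 members 10 of 11 tested fell with CSA 50 mg/kg in each lineage (35.8% of all genes in CD4+ and 36.9% in CD8+ cells). Hist1h4d, the most counted H4 gene, fell far less at the lower dose than at the higher. In CD4+ cells it had 741, 685 and 694 CPM with saline, 526, 520.0 and 495 with CSA 5 mg/kg, and 123, 106 and 108 with CSA 50 mg/kg. Its log2 changes were −0.10 ± 0.05 (adjusted p = 0.0667) and −2.21 ± 0.05 (adjusted p = 1.57e-18) in CD4+ cells, and −0.13 ± 0.05 (adjusted p = 0.0189) and −2.31 ± 0.05 (adjusted p = 1.44e-16) in CD8+ cells. Of the 12 matched H4 promoters 8 held TATAAA and 3 CCAAT, and that of Hist1h4i, with TATAAA and no CCAAT, was not particular in this. Hist1h4i (chr13:22040636-22041362, minus strand) was the H4 gene that rose at that dose. Hist1h4i had 20.02, 14.8 and 14.1 CPM with saline and 18.5, 19.4 and 23.8 with CSA 50 mg/kg in CD4+ cells, which overlap, and a log2 change of 0.81 ± 0.14. In CD8+ cells it had 17.5, 15.7 and 21.9 CPM with saline and 25.4, 27.6 and 38.8 with CSA 50 mg/kg, which do not overlap, with a log2 change of 1.29 ± 0.16 (adjusted p = 7.77e-07). Outside the cycling clusters of CD4+ cells its change was −0.60.

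**Figure D4:**
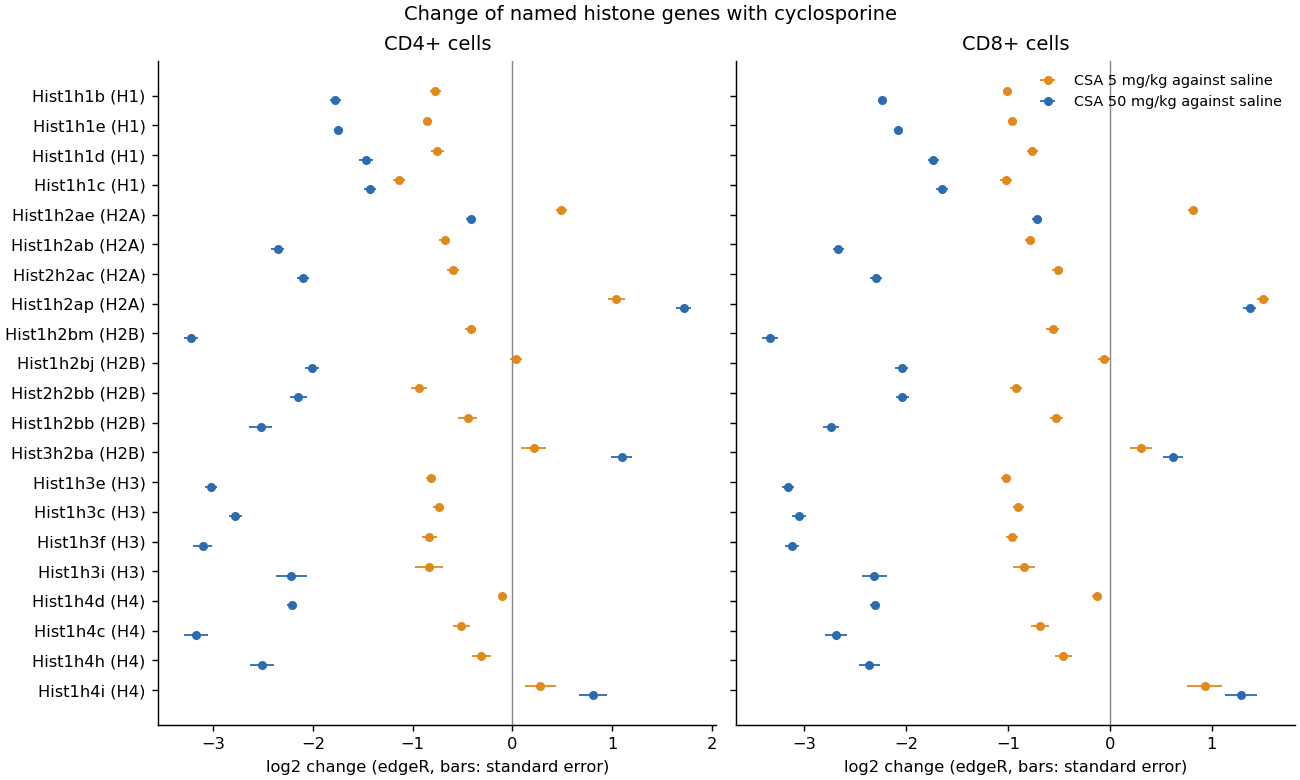
Log2 change (x axis, edgeR on the TMM scale, bars show the standard error) of the named members with CSA 5 mg/kg and 50 mg/kg against saline, with CD4+ cells left and CD8+ cells right. Hist1h2ap, Hist1h4i and Hist3h2ba lie right of 0 at both doses, Hist1h2ae lies right of 0 at 5 mg/kg and left of it at 50 mg/kg, and the others lie left of 0 at 50 mg/kg.

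Hist1h2ap, Hist1h2ae and Hist1h4i were low in naive cells, while Hist3h2ba, which also rose at CSA 50 mg/kg, was less so. In the CSA 5 mg/kg capture a naive CD4+ cell held 5.92% of the Hist1h2ap UMIs of a C3 cell, 8.78% of its Hist1h2ae and 11.1% of its Hist1h4i. It held 19.0% of its Hist3h2ba, 18.6% of its Hist1h1b and 57.3% of its Hist1h3c. The naive CD4+ cells held 11 Hist1h2ap, 85 Hist1h2ae, 4 Hist1h4i and 3 Hist3h2ba UMIs in all, so most of these percentages rest on few counts. Over the 29 CD4+ members with at least 50 UMIs in these 2 clusters, this percentage ran against the log2 change at CSA 50 mg/kg with a Pearson's r of −0.69 and a Spearman's rho of −0.73. Over 35 CD8+ members the values were −0.65 and −0.70. Hist3h2ba, 1 of these 35, stood at 32.0%, above their median of 27.1%. These are correlations across genes, which are not independent, and the genes share libraries and in part sequence, so no p-value is given. The percentage came from the CSA 5 mg/kg capture, whose pools entered the same fit but neither mean of the change.

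**Figure D5:**
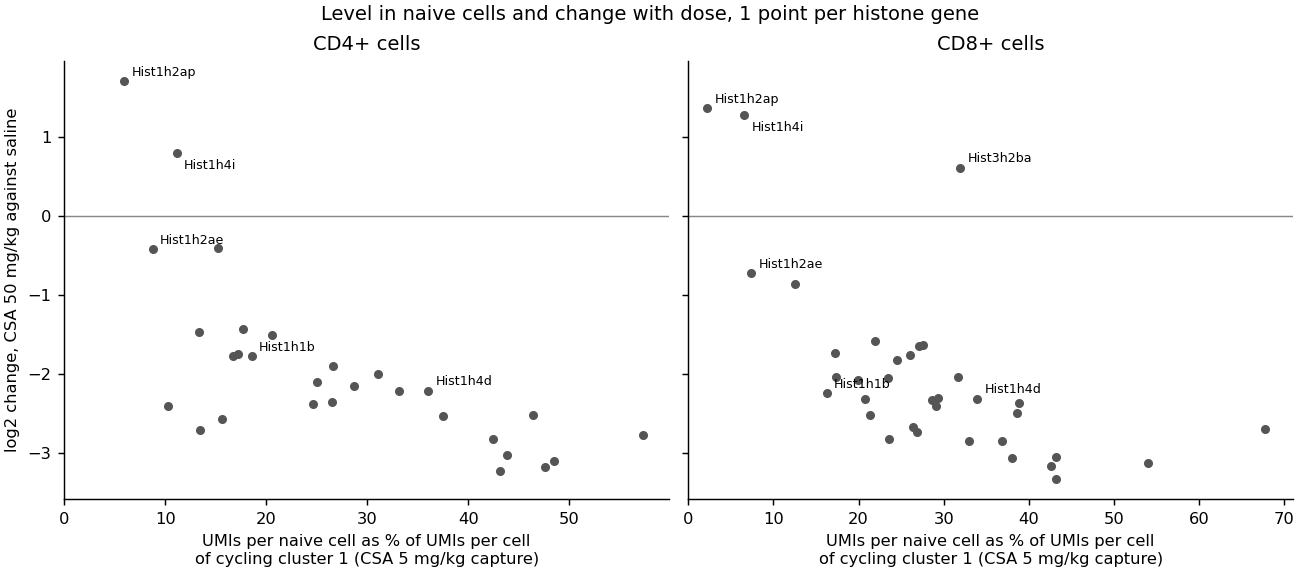
UMIs per naive cell as a percentage of those per cell of cycling effector cluster 1, in the CSA 5 mg/kg capture (x axis), against the log2 change with CSA 50 mg/kg compared with saline (y axis), 1 point per member, for CD4+ cells (left) and CD8+ cells (right). Hist1h2ap and Hist1h4i lie at the upper left in both lineages, and Hist1h3c, at 57.3% in CD4+ cells, lies at the lower right.

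Within clusters, naive cells could be tested for few members. In naive CD4+ cells 16 passed the filter and 16 fell with CSA 50 mg/kg (15.4% of all genes), and in naive CD8+ cells 17 passed and 17 fell (2.26%). These members passed through the groups in which they were high, so they had to fall, and the counts support nothing beyond the background levels given above. In CD4+ C3 with CSA 50 mg/kg, 22 of 34 fell (8.86%) and 2 rose (8.89%), with a median of −0.89. In CD8+ C2, 32 of 43 fell (27.5%) and 3 rose (27.2%), with a median of −1.10. At saline, 5 and 50 mg/kg the naive level was 33.55%, 22% and 4.013% of the histone UMIs of a C3 cell. For a C2 cell it was 35.65%, 21.64% and 5.886%. Above that level C3 went from 38.6 with saline to 45.3 UMIs per cell at 50 mg/kg, and C2 from 32.5 to 35.7, while depth rose. The part of the naive level in the counts of these clusters was not tested, so they are not read as falls in cycling cells. Hist1h1b was at −0.74 ± 0.09 and Hist1h3e at −1.70 ± 0.14 in C3. In naive CD4+ cells they were at −3.71 ± 0.20 and −5.54 ± 0.38, with 40 and 4 UMIs left at CSA 50 mg/kg. These naive values had to be negative, for the reason given above. Hist1h2ap rose in both cycling clusters, by 1.53 ± 0.13 on the log2 scale in CD4+ C3 and by 1.58 ± 0.08 in CD8+ C2 (adjusted p = 4.95e-09 and 2.66e-14). The difference between clusters was not tested, since the clusters were made from these counts.

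In CD4+ C5 24 of 26 members tested fell with CSA 50 mg/kg (27.3%), and in CD8+ C3 29 of 32 (30%). Most histone UMIs of these clusters lay at the naive level with saline, at 22.3 per CD4+ C5 cell against 19.5, and 23.1 per CD8+ C3 cell against 18.01. Members that passed the filter through that level had to fall, so these counts are not read as a change in cycling cells. Above the naive level CD4+ C5 went from 2.79 to 3.54 and CD8+ C3 from 5.14 to 2.14. CD4+ C6 had 11 of 26 lower and 0 higher (1.24% and 1.64%), with 2 pools of at least 10 cells in the CSA 50 mg/kg group, and 5 lower without its pool 1. With CSA 5 mg/kg 9 of 34 members fell and 2 rose in CD4+ C3 (2.09% and 3.92%), but without saline pool 2 only 2 fell. In CD8+ C2 16 of 43 fell and 6 rose (18.5% and 19.0%), and 10 fell without saline pool 2. With library size scaling the CD8+ C2 counts were 25 lower and 4 higher. In the follicular helper cluster CD4+ C4 no member of 17 fell (2.58%) and 4 rose (5.16%) at that dose, namely Hist1h1b, Hist1h2ae, Hist1h2bj and Hist1h4d, picked out after their values were seen. Per cell the histone UMIs of C4 went the other way, from 19.7 with saline to 13.8, near the 13.4 of naive cells, while its median depth went from 2475 to 1506 UMIs.

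Several members made up a larger share of the UMIs in CD8+ than in CD4+ cells of the same saline pools. With the pool as a block, 15 of 51 members tested were higher in CD8+ cells and 0 lower, against 21.5% and 18.9% of all genes; DESeq2 called 7 higher, and leaving out saline pool 3 gave 9. These were all 5 H1 members, 6 of H2A, 3 of H2B, 1 of H3 and none of H4. Between the lineages the change with CSA 50 mg/kg was more negative in CD8+ than in CD4+ cells for 11 of 51 members and less negative for 0 (10.4% and 9.33% of all genes), and with CSA 5 mg/kg 2 were more negative and 2 less (1.54% and 2.12%). All 5 H1 members were among the 11. DESeq2 called 4 members, of which 3 were H1 (Hist1h1a, Hist1h1b and Hist1h1e), and leaving out saline pool 1 or CSA 50 mg/kg pool 1 gave 7. The share of cells in the histone-rich clusters C6 and C4 differed between the lineages, as given above, and its part in these differences was not tested.

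Genes that act around the histone genes did not all move in the same direction. Npat, which switches the histone genes on, fell with CSA 50 mg/kg, by 1.13 ± 0.10 on the log2 scale in CD4+ (adjusted p = 1.18e-09) and 1.41 ± 0.10 in CD8+ cells (adjusted p = 9.18e-10). Casp8ap2, another histone locus body gene, fell by 0.29 and 0.59. Slbp was at 0.36 ± 0.05 in CD4+ and 0.10 ± 0.05 in CD8+ cells (adjusted p = 7.74e-07 and 0.109), and both values turned negative with library size scaling. In the list of histone transcription and mRNA processing genes, written with earlier results known, 7 rose and 6 fell of 19 in CD4+ cells, and 3 rose and 13 fell of 20 in CD8+ cells (medians −0.08 and −0.36), and with library size scaling 2 rose and 12 fell, and 1 rose and 17 fell. Of 15 histone chaperones 7 rose and 4 fell in CD4+, and 4 rose and 6 fell in CD8+ cells. With library size scaling 0 rose and 12 and 14 fell. Of all genes tested, 34.7% rose and 35.8% fell in CD4+ and 37.1% and 36.9% in CD8+ cells. With library size scaling these shares were 15.1% and 59.0%, and 15.6% and 62.7%. In CD4+ cells the transcription and processing list lay near these shares on both scales, so its counts there show no movement particular to it.

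Most replacement histones rose. With CSA 50 mg/kg 9 of 10 rose and 0 fell in CD4+ cells and 8 rose and 1 fell in CD8+ cells (medians 0.79 and 0.71), the one that fell being H1f0. With library size scaling 7 rose and 1 fell in CD4+ and 6 rose and 2 fell in CD8+ cells. Of all genes, 34.7% and 37.1% rose on the TMM scale and 15.1% and 15.6% with library size scaling. H3f3b, which supplies H3 outside S phase, had 1081, 1094 and 1123 CPM with saline and 1463, 1518 and 1389 with CSA 50 mg/kg in CD4+ cells, with a log2 change of 0.84 ± 0.03 (adjusted p = 6.93e-15). H2afz, the H2A variant of promoters, changed by 0.66 ± 0.04 in CD4+ and 0.75 ± 0.06 in CD8+ cells; outside the cycling CD4+ clusters its change was −0.14. In naive CD4+ cells 1 of 8 replacement histones rose and 3 fell.

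Of 25 DNA replication genes, 14 rose and 3 fell in CD4+ cells at CSA 50 mg/kg on the TMM scale (median 0.21), but 2 rose and 14 fell with library size scaling (median −0.23), so their direction depends on the scale. In CD8+ cells 4 rose and 15 fell (median −0.24), and with library size scaling 0 rose and 25 fell. The sliding clamp gene Pcna had log2 changes of 0.50 ± 0.06 in CD4+ (adjusted p = 9.99e-08) and 0.13 ± 0.06 in CD8+ cells (adjusted p = 0.0676), and the clamp partner Pclaf 0.58 ± 0.04 and 0.24 ± 0.06; with library size scaling both were negative in CD8+ cells, at −0.40 and −0.29. Of 20 mitosis genes 6 rose and 10 fell in CD4+ and 2 rose and 15 fell in CD8+ cells, and with library size scaling 2 rose and 15 fell and 0 rose and 18 fell. Of all genes, 34.7% rose and 35.8% fell in CD4+ and 37.1% and 36.9% in CD8+ cells. With library size scaling these shares were 15.1% and 59.0%, and 15.6% and 62.7%. The proliferation marker Mki67 fell by 1.18 ± 0.08 and 1.89 ± 0.07.

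Across the 22 clusters, the non-member genes of at least 50 CPM whose level was most like the summed members were Smarcc2 (Pearson's r 0.92 of log2(CPM + 1)), Suz12 (0.92), Luc7l2 (0.91), Scaf11 (0.90) and Rpa1 (0.90), out of 3215 genes. The summed level itself had an r of 0.76 with the percentage of a cluster's cells that came from the saline capture. Clusters share captures, and no p-value is given.

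Erythroid markers were higher at the highest dose. The summed level of 7 erythroid genes was between 3.39 and 19.0 CPM in the saline pools and between 25.2 and 49.2 in the CSA 50 mg/kg pools. That of 6 myeloid genes was between 80.0 and 202 CPM in all groups. Their part in the histone results was not tested. TEa cells outside the cycling clusters, which had been left out above, held 20.1 (85 cells), 12.2 (76 cells) and 2.47 (17 cells) histone UMIs each at saline, 5 and 50 mg/kg, near the naive level of their captures.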

How the data were processed

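The authors deposited unnormalized UMI counts for each gene in each cell of 10x 5′ libraries, already limited to the cells and genes they kept. Per the submitters' processing notes, the build was mm10 and the tools Cell Ranger and Seurat 3.0.0. The hashtag columns, deposited as antibody counts per cell, gave the check for cells with 2 strong hashtags (second at least 0.5 of the first). Lineage, cluster, pool and TEa mark were taken from the authors' table of cells; the CD8+ cluster numbers there differ from the study's names and were matched to them by marker genes. No column of another series was present (0 columns).

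Counts were summed per pool, and within clusters for pools of at least 10 cells and groups of at least 2 such pools. The test was edgeR's (version 4.0.16, under R 4.3.3), after filterByExpr and TMM, with all 9 pools in 1 fit and an adjusted p threshold of 0.05; the comparison of lineages had the pool as a block. Histone UMIs per cell were set against the naive cells of the same capture, and cells were thinned to 2000 UMIs. The members, gene lists, named genes and tests were chosen with earlier results of these data known. Members with values are the 4 of highest mean CPM in each type. The alternatives were DESeq2 1.42.0, no filter, library size scaling, only the groups compared, the pool number as a block or no block, TEa cells included, cells outside the cycling clusters, cells of at least 2000 UMIs, the cluster mix held, 1000 UMIs or no thinning, and leaving out each pool. Chosen after seeing the data were a fit without cells with 2 strong hashtags, a base other than naive cells, and library size scaling of the gene lists. Simulated data with known changes served to check the fits.

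Same-numbered pools did not deviate together, with correlations between −0.136 and 0.106, so pool numbers were treated as names. At 3 pools per group the spread rests on few samples, and intervals cover the pools sequenced. Results of some marker genes of other cells are not reported here.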

Additional observations from a re-analysis of the deposited data

Results flagged for a closer look

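The change with CSA differed between CD8+ and CD4+ cells for 15 combinations of member and dose by the interaction term of the edgeR quasi-likelihood test, adjusted over all genes. Each difference below is the log2 change in CD8+ minus that in CD4+ cells, with 3 pools in each group.

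At CSA 5 mg/kg Hist1h1b fell more in CD8+ cells, by a difference of −0.27 ± 0.05 (SE; edgeR adjusted p = 0.00298), and so did Hist1h3e, with −0.23 ± 0.06 (edgeR adjusted p = 0.041). Hist1h2ae rose more in CD8+ cells, by 0.30 ± 0.07 (edgeR adjusted p = 0.00908), and so did Hist1h2ap, with 0.43 ± 0.10 (edgeR adjusted p = 0.00966).

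At CSA 50 mg/kg every H1 member tested fell more in CD8+ cells. The difference was −0.47 for Hist1h1a, −0.49 for Hist1h1b, −0.24 for Hist1h1c, −0.28 for Hist1h1d and −0.36 for Hist1h1e, with edgeR adjusted p-values between 2.51e-07 and 0.0445. Among the H2A members it was −0.33 for Hist1h2ab, −0.32 for Hist1h2ae and −0.22 for Hist2h2ac. Hist1h3c differed by −0.30. Hist1h2ap, which rose in both lineages, rose less in CD8+ cells at this dose, with a difference of −0.37 ± 0.09, opposite in sign to that at the lower dose. Hist3h2ba likewise rose less, with −0.50 ± 0.14.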

How the results depend on the processing

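Depth, 3 pools per group and 1 capture per treatment limit every value, and counting error in small clusters limits calls within them. Leaving out a pool reversed no named gene.

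In cells outside the cycling clusters, members called higher went from 3 to 1 (CSA 50 against 5 mg/kg), 3 to 1 (50 mg/kg) and 2 to 0 (5 mg/kg) in CD4+ and from 1, 3 and 5 to 0 in CD8+ cells. The log2 changes that turned there in CD4+ cells were, for 50 against 5 mg/kg, H2afz −0.25, Hist1h2ap −1.51, Hist1h4i −0.17, Pclaf −1.16, Pcna −0.0666 and Slbp −0.25. For 50 mg/kg against saline they were H2afz −0.14, Hist1h2ap −1.65, Hist1h4i −0.60, Pclaf −1.72, Pcna −0.0202 and Slbp −0.12, and for 5 mg/kg Hist1h2ae −0.17, Hist1h2ap −0.13, Mki67 0.19 and Pclaf −0.56. In CD8+ cells they were Hist3h2ba −0.0223 (50 against 5 mg/kg), Hist1h2ap −2.26, Pclaf −1.68 and Pcna −0.23 (50 mg/kg), and Hist1h2ae −0.18, Hist1h2ap −0.49, Mki67 0.28 and Pclaf −0.36 (5 mg/kg).

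With library size scaling, Slbp turned to −0.0754 at 50 mg/kg in CD4+ cells, and Hist1h2bj to −0.32, Pclaf to −0.15, Pcna to −0.23 and Slbp to −0.20 at 5 mg/kg. In CD8+ cells Pclaf turned to −0.29, Pcna to −0.40 and Slbp to −0.43 at 50 mg/kg, and H1f0 to −0.32, Hist3h2ba to −0.12, Pclaf to −0.0632, Pcna to −0.29 and Slbp to −0.22 at 5 mg/kg. Members higher went from 2 to 1 in CD4+ C3 and CD8+ C3 at 50 mg/kg, from 1 to 0 in CD4+ C5 and CD8+ C3 at 5 mg/kg and in CD8+ cells between the doses, and from 5 to 3 in CD8+ cells at 5 mg/kg; members lower in CD8+ C2 at 5 mg/kg went from 16 to 25.

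With DESeq2, members higher went from 2 to 1 in CD4+ C3 at 50 mg/kg, from 1 to 0 in CD4+ C5 at 5 mg/kg and in CD8+ cells between the doses, and from 15 to 7 in CD8+ against CD4+ saline cells. Its lineage differences were 1 lower and 1 higher at 5 mg/kg and 4 lower at 50 mg/kg. With no filter, members higher were 1 in CD4+ C6 at 5 mg/kg and 2 in CD8+ cells between the doses, and lineage differences 4 higher at 5 mg/kg and 1 higher at 50 mg/kg. With the pool number as a replicate block, members higher in CD8+ cells between the doses were 2 in place of 1; with no block, 1 member was lower in the lineage difference at 5 mg/kg. The cause of these moves was not tested.

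The summed level as a share of saline was 0.669 (5 mg/kg) and 0.289 (50 mg/kg) in CD4+ and 0.638 and 0.241 in CD8+ cells on the TMM scale, and 0.697, 0.145, 0.641 and 0.208 with the cluster mix held. With the other non-cycling clusters as the base, histone UMIs above it were 8.42 per CD4+ cell at 50 mg/kg and 22.4 per CD8+ cell with saline. The share of cells with at least 5 histone UMIs, thinned to 1000 UMIs, was 67.99% and 33.98% in naive cells (saline, 5 mg/kg) and 71.1%, 46.4% and 20.4% in cycling cells; with no thinning it was 100%, 98.0% and 9.53% in naive and 99.97%, 99.6% and 61.7% in cycling cells.

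Leaving out 1 pool gave 1 to 2 members higher in CD4+ C3 at 50 mg/kg (1 without saline pool 2 or CSA 50 mg/kg pool 2) and 2 to 9 lower at 5 mg/kg (2 without saline pool 2). CD4+ C5 had 10 to 14 lower (16 with all pools; 10 without saline pool 2, or CSA 5 mg/kg pool 1 or 3) and 0 to 1 higher at 5 mg/kg. CD4+ C6 had 5 to 11 lower (5 without CSA 50 mg/kg pool 1) and 0 to 1 higher at 50 mg/kg, and 1 to 2 higher at 5 mg/kg. CD8+ cells had 0 to 2 higher between the doses and 3 to 5 at 5 mg/kg (3 without CSA 5 mg/kg pool 3). CD8+ C2 had 10 to 16 lower (10 without saline pool 2) and CD8+ C4 6 to 12 (6 without CSA 5 mg/kg pool 3). CD8+ against CD4+ saline cells had 9 to 17 higher (9 without saline pool 3). The lineage difference had 1 to 2 lower and 0 to 3 higher at 5 mg/kg, and 7 to 12 lower (7 without saline pool 1 or CSA 50 mg/kg pool 1) and 0 to 1 higher at 50 mg/kg. UMIs above naive were 7.75 to 9.62 per CD4+ cell with saline, 8.87 to 9.80 at 50 mg/kg, and 24.6 to 26.2 per CD8+ cell with saline.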
